A study of Mus musculus with 6 samples.

Results

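The Hox genes are homeobox genes that lie side by side in 4 chromosomal clusters, HoxA to HoxD. The deposited table holds 39 of them among 55401 mouse genes, chosen as every row whose symbol is Hoxa, Hoxb, Hoxc or Hoxd followed by a number. The HoxA cluster has 11 members, HoxB has 10, and HoxC and HoxD have 9 each. The series holds 3 RNA-seq libraries of Nrf2 knockout cells and 3 of WT cells, grown from mouse bone marrow and labelled stromal/stem cells. Nrf2 is the protein of Nfe2l2, a transcription factor that turns on antioxidant genes. All cells grew in DMEM with serum and antibiotics. The strain, age and sex of the animals, the knockout allele and any pooling are not given in the sources used here. The knockout columns share a middle 1 in their names whose meaning is not stated, and no label says that the libraries came from separate animals. Any p-value here is thus set by the spread among the libraries at hand, part of which may be technical.

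Hox proteins bind DNA through a homeodomain and give cells along the body axis and the limbs their position. Genes at one end of each cluster, the low-numbered ones, act toward the head, and high-numbered ones act toward the tail and the far end of the limbs. Genes with the same number in different clusters descend from one ancestor and form a paralog group. Stromal cells taken from the adult body keep much of the Hox pattern of the place they came from, and several Hox genes also act in blood stem cells.

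Library totals ran from 18381114 to 21323839 counts. Nfe2l2 had 118, 149 and 118 counts in knockout libraries 1 to 3, against 3591, 3082 and 3628 in WT libraries 1 to 3. The labelled cell type was checked with marker lists. The 18 stromal markers summed to 102, 148 and 120 CPM (counts as a share of the library total, scaled by edgeR's trimmed mean method) in knockout libraries, against 1722, 6214 and 8707 in WT libraries. Of 15 stromal markers tested, 14 were lower in knockout cells and Eng was not called, beside 18.7% lower over all genes tested. Of the 15, 7 reached the test's count minimum in every WT library but not in every knockout library, and all 7 were called lower. For these 7 a lower knockout level was built into their selection. In the knockout libraries Thy1 was at 0 or 1 count and Twist2 at 0 or 1 count. The 14 macrophage markers summed to 19126 to 20919 CPM in knockout libraries and 17979 to 23164 CPM in WT libraries. Of them 5 were called higher and 9 were not called, beside 14.1% higher over all genes tested. The libraries of both genotypes thus held abundant macrophage transcripts, and the 3 WT libraries differed from each other in stromal transcripts. In bulk RNA, fewer cells of a type and less RNA per cell cannot be told apart.

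Hox transcripts were lower in Nrf2 knockout cells than in WT cells in the HoxA and HoxC clusters, while the HoxB cluster differed far less and HoxD was almost silent in both genotypes. All Hox genes together had 128, 123 and 112 counts in the knockout libraries, against 363, 1101 and 1878 in the WT libraries. The groups did not overlap, and the WT libraries spread widely among themselves. The summed level was 5.97 ± 0.37 CPM in knockout cells and 53.4 ± 31.4 CPM in WT cells (SD, n = 3 each), so knockout cells held 11.2% of the WT level. An exact permutation test of 3 libraries against 3 cannot give a p below 0.1, so no such test is given for sums.

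Of the 39 genes, 12 had enough counts for the edgeR test, which asked for at least 10 counts, scaled for depth, in 3 libraries. Of those 12, 11 were called lower in knockout cells, none was called higher, and Hoxb4 was not called. Among all 13184 genes tested, 32.9% were called, 18.7% lower and 14.1% higher. The share called lower was 11.8%, 12.4% and 11.9% without knockout library 1, 2 or 3, and 26.9%, 12.6% and 16.0% without WT library 1, 2 or 3. Hox genes entered the test mostly through WT: 10 of the 12 reached the count minimum in all 3 libraries of WT but not of knockout. Of the 12, 9 reached it in no knockout library, so a lower knockout level was built into their selection. Only Hoxb3 and Hoxb4 met the minimum in all 3 knockout libraries. The other 27 genes went untested: 8 had no count in any library, 4 had 1 to 3 counts in all, and 15 had 4 or more. In all, 20 of the 39 genes had every knockout library below every WT library in CPM, and none had every knockout library above. Over all tested genes, a set that leaves out genes with too few counts, 25.9% were without overlap in the lower direction and 24.9% in the higher one. Among the 12 tested Hox genes, the 11 called ones were without overlap in the lower direction and Hoxb4 was not.

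**Figure D1:**
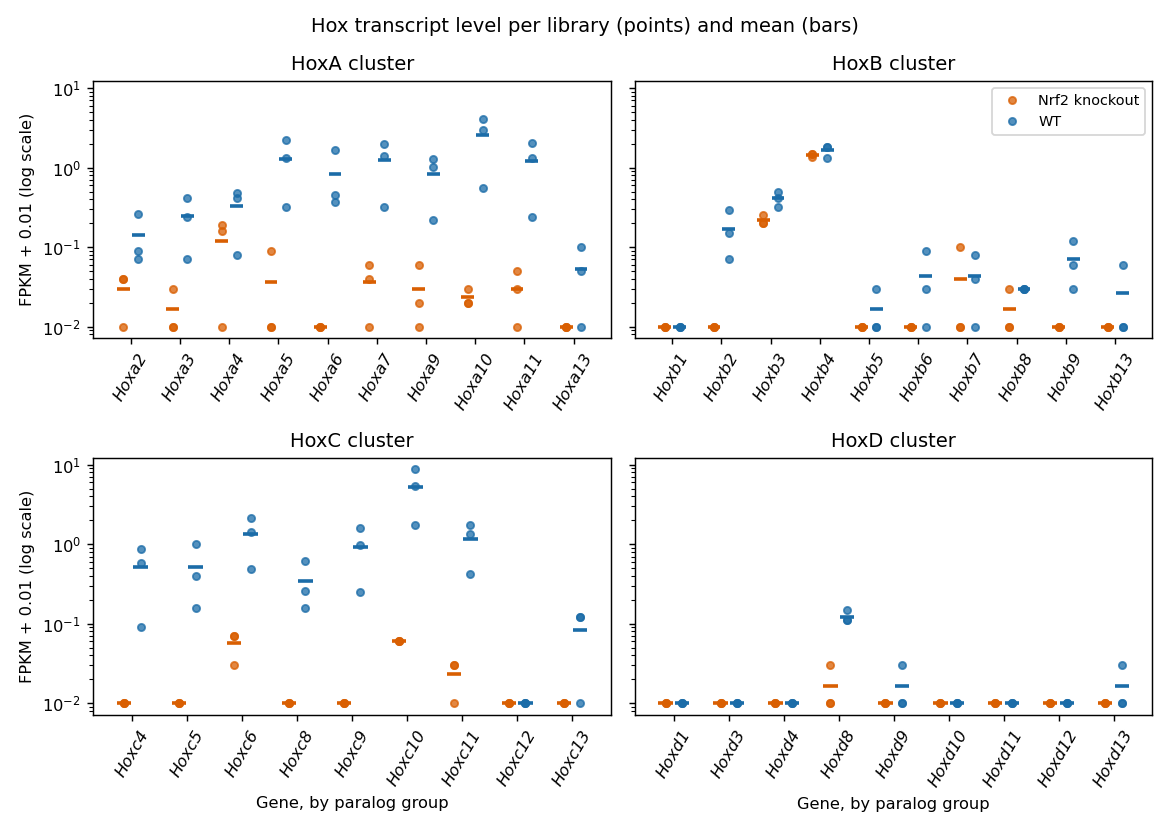
Transcript level of 38 of the 39 Hox genes, by cluster, in FPKM on a log scale; each point is 1 library and each bar the mean of 3, with knockout libraries in orange to the left of WT libraries in blue. Among genes at or above 1 FPKM on average in WT cells, Hoxb4 is the one whose knockout and WT points lie together. It averages 1.43 FPKM in knockout cells and 1.65 FPKM in WT cells.

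The genes were placed in the table on mouse build mm10. HoxA lay on chromosome 6, and its genes were on the minus strand. HoxB lay on chromosome 11 from 96194316 to 96368256, HoxC on chromosome 15 from 102921103 to 103036852, and HoxD on chromosome 2 from 74668310 to 74765142, all on the plus strand. Because Nrf2 binds DNA at antioxidant response elements, promoter windows from RefSeq (GRCm38.p6) were searched for the core of that element, TGACNNNGC, on both strands. The table gave windows for 22 of the 39 genes, 24 windows in all, each running from 250 bases before to 50 bases after the start. The core was found in 2 of the 24 Hox windows (8.33%), those of Hoxa6 and Hoxd10, against 4071 of all 32851 windows (12.4%). The composite letters to which a Hox protein and its partner Pbx can bind, TGATTNAT, were found in the windows of Hoxa2 and Hoxd11, again 2 of 24, against 3.22% of all windows. A match is a description of letters and not a bound site.

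Shown here, each 5′ to 3′ along the gene's strand, are the bases upstream of Hoxa6, Hoxa10 and Hoxb4. Hoxa6 is the HoxA gene with a core match upstream of its start. Hoxa10 is a posterior gene that was far lower in knockout cells, and Hoxb4 is the tested gene with similar counts in both genotypes. Capitals mark the core match, which lies on the opposite strand from the gene, and the Hoxa10 and Hoxb4 stretches hold none.
Hoxa6 (chr6:52208723-52208922, minus strand): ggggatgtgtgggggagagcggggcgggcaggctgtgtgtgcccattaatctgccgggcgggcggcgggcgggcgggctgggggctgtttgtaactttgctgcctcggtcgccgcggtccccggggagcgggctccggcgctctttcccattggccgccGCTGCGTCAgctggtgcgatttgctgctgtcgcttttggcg
Hoxa10 (chr6:52240855-52241104, minus strand): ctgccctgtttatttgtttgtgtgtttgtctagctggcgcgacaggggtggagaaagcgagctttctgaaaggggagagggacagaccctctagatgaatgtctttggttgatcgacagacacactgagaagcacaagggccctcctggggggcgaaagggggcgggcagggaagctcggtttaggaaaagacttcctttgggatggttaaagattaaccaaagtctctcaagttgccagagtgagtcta
Hoxb4 (chr11:96318017-96318266, plus strand): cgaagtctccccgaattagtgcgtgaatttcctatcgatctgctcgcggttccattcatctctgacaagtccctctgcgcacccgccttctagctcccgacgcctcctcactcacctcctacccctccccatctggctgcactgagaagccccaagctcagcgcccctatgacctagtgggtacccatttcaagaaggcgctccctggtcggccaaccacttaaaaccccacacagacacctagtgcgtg

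The HoxA cluster was at 1.02 ± 0.072 CPM in knockout cells and 25.4 ± 17 CPM in WT cells (SD, n = 3 each), which put knockout at 4.02% of WT. Its counts were 20, 20 and 22 in knockout libraries, against 127, 545 and 924 in WT libraries. Of its genes 6 were tested and all 6 were called lower, beside 18.7% of all genes tested. None of the 6 reached the count minimum in every knockout library, so a lower knockout level was built into their selection.

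Hoxa4, an anterior gene, had 5, 6 and 0 counts in knockout libraries, against 2, 12 and 16 in WT libraries, and its groups overlapped. It was too low for the test. Its knockout counts were 0.349 of its WT counts (exact 95% interval 0.158 to 0.716, counting error only). Hoxa2, which shapes the second branchial arch, had 0, 1 and 1 counts in knockout libraries and 2, 8 and 3 in WT libraries. Hoxa3, needed for the thymus and parathyroid, had 0, 0 and 2 counts in knockout libraries and 7, 25 and 52 in WT libraries. Both were without overlap but too low for the test.

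Hoxa5, which acts in lung and neck development, had 0, 0 and 3 counts in knockout libraries, against 11, 46 and 89 in WT libraries. No knockout library reached the lowest WT library, with a log2 fold change of -5.39 ± 1.09 (SE, edgeR adjusted p = 0.010). Without knockout library 3, which held all its knockout counts, the value was -8.55, and without knockout library 2 the call was lost (adjusted p = 0.051). Hoxa6 had 0 counts in every knockout library, against 6, 7 and 31 in WT libraries. That is at least 15.4-fold lower, with the knockout group set at a floor of 3 counts over its 3 libraries and the groups scaled for depth. Hoxa7 had 3, 0 and 2 counts in knockout libraries, against 17, 74 and 120 in WT libraries. These groups were also apart (log2 fold change -5.26, SE 0.92, edgeR adjusted p = 0.0063).

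Hoxa9, known for its part in blood progenitors and in leukaemia, had 1, 0 and 6 counts in knockout libraries, against 22, 103 and 153 in WT libraries. It differed by a log2 fold change of -5.20 ± 0.99 (SE, edgeR adjusted p = 0.0083), and most of its few knockout counts came from library 3. Under limma-voom the log2 fold change was -5.49 and the call was lost (adjusted p = 0.057). Hoxa10, which patterns the upper limb segment and the uterus, had 1 count in each knockout library, against 34, 176 and 287 in WT libraries. It was the HoxA gene with the highest WT level per length, at 0.013 FPKM in knockout cells and 2.53 ± 1.82 FPKM in WT cells (SD, n = 3). Summed counts were 174-fold lower in knockout cells, with an exact 95% interval from 59.2 to 847 for counting error (log2 fold change -7.16, SE 0.98, edgeR adjusted p = 0.0026). Under limma-voom it was -6.43 and was not called (adjusted p = 0.071). Hoxa11, which acts in the lower limb segment and the uterus, had 2, 1 and 0 counts in knockout libraries, against 10, 56 and 99 in WT libraries. The groups did not overlap (log2 fold change -5.57, SE 1.05, edgeR adjusted p = 0.0081), but 35.0% of its exonic bases overlap the opposite-strand gene Hoxa11os. Hoxa13, the gene of the hand and foot plate, had no count in knockout libraries and 0, 4 and 2 in WT libraries.

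The HoxB cluster summed to 4.68 ± 0.42 CPM in knockout cells and 6.70 ± 1.21 CPM in WT cells (SD, n = 3 each). Its counts were 103, 97 and 85 in knockout libraries, against 97, 139 and 170 in WT libraries, so the raw counts overlapped. On the depth-scaled CPM scale every knockout library (5.10, 4.69 and 4.26) was below every WT library (5.31, 7.36 and 7.43). Summed over libraries, knockout counts were 66.8% of WT counts (exact 95% interval 57.2 to 77.9, counting error only). Nearly all of these counts came from Hoxb3 and Hoxb4, neighbouring genes that act in the hindbrain and in blood stem cells.

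Hoxb4, which enlarges the blood stem cell pool when it is forced on, had 78, 80 and 69 counts in knockout libraries, against 65, 85 and 100 in WT libraries. The libraries of both genotypes overlapped. Its level was 1.43 ± 0.078 FPKM in knockout cells and 1.65 ± 0.29 FPKM in WT cells (SD, n = 3 each), with a log2 fold change of -0.15 ± 0.18 (SE, edgeR adjusted p = 0.55). The count ratio of knockout to WT was 0.864, with an exact 95% interval from 0.719 to 1.04 for counting error. It was the single Hox gene at or above 1 FPKM on average in knockout cells, where 8 Hox genes reached that level in WT cells.

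Hoxb3 had 21, 17 and 16 counts in knockout libraries, against 25, 31 and 44 in WT libraries. Each knockout library was below each WT library, with a log2 fold change of -0.89 ± 0.27 (SE, edgeR adjusted p = 0.045). The call lay close to the threshold of 0.05. It was lost when knockout library 1 (adjusted p = 0.099), 2 (0.14) or 3 (0.16) or WT library 2 (0.13) or 3 (0.15) was left out, and in 11 of 16 other settings in all. Some of those settings kept every library, such as DESeq2 (adjusted p = 0.12) and limma-voom (adjusted p = 0.058). More than any other tested Hox gene, Hoxb3 shares bases with an opposite-strand gene, 52.9% with Hoxb3os. That gene had 0 counts in knockout libraries and 1, 4 and 1 in WT libraries.

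The remaining HoxB genes were near the floor. Hoxb2, a hindbrain gene, had no count in knockout libraries and 4, 9 and 21 counts in WT libraries, at least 11.9-fold lower in knockout cells. Hoxb7 had 3, 0 and 0 counts in knockout libraries and 1, 2 and 0 in WT libraries, and these overlapped. Hoxb5, Hoxb6, Hoxb8, Hoxb9 and Hoxb13 had at most 1 count in any knockout library and at most 5 in any WT library, and Hoxb1 had none. Both genotypes therefore showed an anterior HoxB pattern, with Hoxb3 and Hoxb4 read and the genes from Hoxb5 onward nearly unread. The blood stem and progenitor markers, set beside these genes, summed to 14.9, 16.8 and 16.3 CPM in knockout libraries and 3.89, 6.72 and 12.1 CPM in WT libraries. Of that list Flt3 was at 0 in every library, and Kit had 7, 10 and 7 counts in knockout libraries and 2, 0 and 6 in WT libraries. Most of the knockout sum was Mpo, a granule enzyme of young myeloid cells, with 232, 264 and 263 counts in knockout libraries and 18, 4 and 103 in WT libraries. It was called higher (log2 fold change 2.67, SE 0.78, edgeR adjusted p = 0.038). Without Mpo the list had 69, 83 and 63 counts in knockout libraries and 53, 123 and 174 in WT libraries, which overlapped. Its other members went both ways. Gfi1 had 11, 17 and 6 counts in knockout libraries and 2, 1 and 1 in WT libraries. Meis1 had 17, 17 and 23 against 28, 79 and 93, and Hlf had 0 in every knockout library against 3, 5 and 15. The part of such cells in the HoxB level was not tested.

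**Figure D2:**
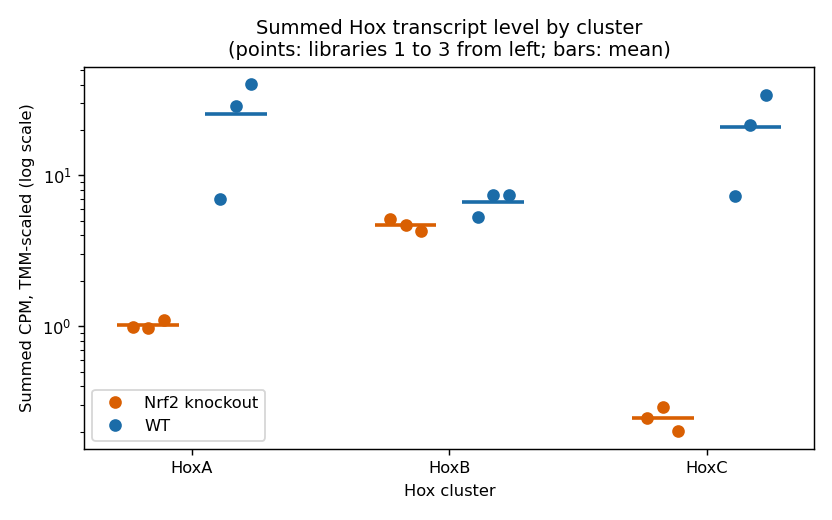
Summed Hox level of the HoxA, HoxB and HoxC clusters in CPM on a log scale; points are libraries 1 to 3 from left, bars are means, with knockout in orange to the left of WT in blue. Knockout lies at 4.02% of WT for HoxA and 1.17% for HoxC but at 69.9% for HoxB.

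The HoxC cluster differed most. It had 5, 6 and 4 counts in knockout libraries, against 134, 411 and 775 in WT libraries, and summed to 0.246 ± 0.045 CPM in knockout cells and 21 ± 13.3 CPM in WT cells (SD, n = 3 each). All 4 genes tested were called lower, beside 18.7% of all genes tested. None of the 4 reached the count minimum in any knockout library, so a lower knockout level was built into their selection. The 3 anterior and middle genes Hoxc4, Hoxc5 and Hoxc8 had no count in any knockout library. In WT libraries Hoxc4 had 4, 27 and 47 counts, Hoxc5 had 9, 22 and 65, and Hoxc8, a gene of the lower thorax, had 8, 13 and 36. Against the floor of 3 counts for the knockout group they were at least 27.3-fold, 33.6-fold and 19.96-fold lower in knockout cells.

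Hoxc6, which acts in the thorax, had 3, 3 and 1 counts in knockout libraries, against 22, 62 and 109 in WT libraries. The groups were far apart (log2 fold change -4.68, SE 0.68, edgeR adjusted p = 0.0033). Hoxc9, which sets thoracic motor neuron identity, had no count in knockout libraries, against 11, 43 and 82 in WT libraries. It was at least 47.6-fold lower in knockout cells (edgeR adjusted p = 0.013). Hoxc11, which acts in the hindlimb, had 0, 1 and 1 counts in knockout libraries, against 16, 50 and 74 in WT libraries. It too was without overlap (log2 fold change -5.86, SE 0.83, edgeR adjusted p = 0.0029).

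Hoxc10, a gene of the lumbar region and the hindlimb, had 2 counts in each knockout library, against 64, 189 and 356 in WT libraries. Of all 39 genes it had the highest WT level per length, 0.05 FPKM in knockout cells and 5.30 ± 3.50 FPKM in WT cells (SD, n = 3). Its summed counts were 107-fold lower in knockout cells, with an exact 95% interval from 48.7 to 292 for counting error (log2 fold change -6.54, SE 0.73, edgeR adjusted p = 0.0017). Under limma-voom it was -6.12 and was not called (adjusted p = 0.056). Part of its exons, 8.70% of the bases, also belongs to Hoxc5 on the same strand, so reads there cannot be given to one gene. Hoxc13 had no count in knockout libraries and 0, 5 and 6 in WT libraries, and Hoxc12 had none.

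The HoxD cluster had 0, 0 and 1 counts in knockout libraries and 5, 6 and 9 in WT libraries, and no gene of it was tested. Hoxd8 gave 18 of the 20 WT counts, with 0, 0 and 1 counts in knockout libraries and 5, 5 and 8 in WT libraries. Hoxd1, Hoxd3, Hoxd4, Hoxd10, Hoxd11 and Hoxd12 had no count in any library. Hoxd9 and Hoxd13 had 1 count each, both in WT. At this depth a low level of those genes was not detectable.

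**Figure D3:**
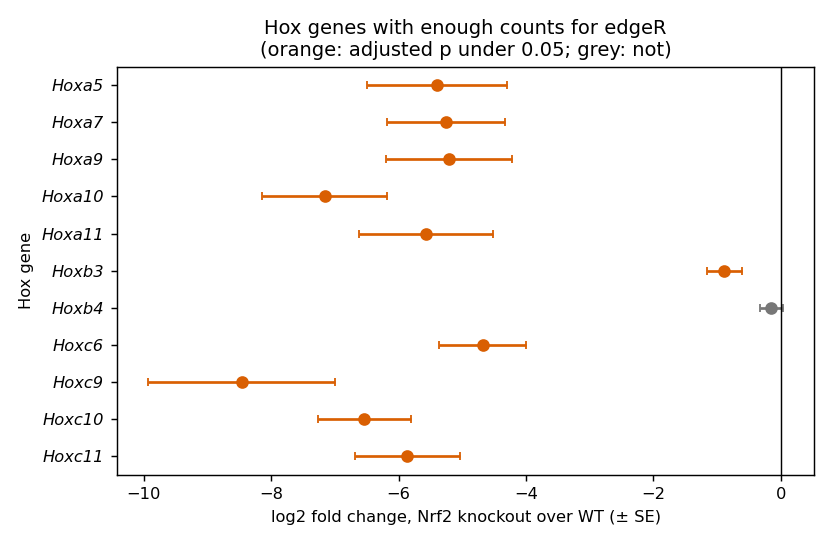
Log2 fold change of Nrf2 knockout over WT for 11 of the 12 Hox genes tested, with bars of 1 SE; orange points had an edgeR adjusted p under 0.05. The fitted value of Hoxc9 is no bound, since its knockout libraries were at 0; Hoxb4 at -0.15 and Hoxb3 at -0.89 lie nearest to 0.

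In WT cells the levels per length ran in order from Hoxc10 through Hoxa10 (2.53 ± 1.82 FPKM), Hoxb4 (1.65 ± 0.29), Hoxc6 (1.33 ± 0.82), Hoxa5 (1.29 ± 0.96), Hoxa7 (1.22 ± 0.84) and Hoxa11 (1.20 ± 0.91) to Hoxc11 (1.16 ± 0.67 FPKM; SD, n = 3 each). Neighbours in that order differed by less than their spread between WT libraries. In knockout cells Hoxb4 was at 1.43 ± 0.078, Hoxb3 at 0.207 ± 0.029 and Hoxa4 at 0.110 ± 0.096 FPKM (SD, n = 3 each). Hoxb4 stood above the rest there by more than the spread, and Hoxb3 and Hoxa4 did not separate beyond theirs. All 3 are anterior genes, whereas the leading WT genes belong to paralog groups 10 and 4.

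By paralog group, the knockout level as a share of the WT level in CPM was 4.32% for group 2, 31.0% for group 3 and 66.7% for group 4. It was 1.31% for group 5, 2.99% for group 6, 3.88% for group 7, 2.67% for group 8, 1.73% for group 9, 0.841% for group 10 and 1.68% for group 11. Groups 3 and 4 had the largest shares of these, and each rests mainly on 1 gene in knockout cells, Hoxb3 for group 3 and Hoxb4 for group 4. Group 10 had 3 counts in each knockout library, against 98, 365 and 643 in WT libraries. It was the group with the highest WT level per length, at 0.063 FPKM in knockout cells and 7.83 FPKM in WT cells. Group 13 had no count in knockout libraries and 0, 12 and 8 in WT libraries, and group 12 had no count at all.

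The makeup of the Hox transcripts differed as well. HoxB genes gave 80.5%, 78.9% and 75.9% of the Hox counts in knockout libraries, against 26.7%, 12.6% and 9.05% in WT libraries. HoxC genes gave 3.91%, 4.88% and 3.57% in knockout libraries, against 36.9%, 37.3% and 41.3% in WT libraries. HoxA genes gave 15.6%, 16.3% and 19.6% in knockout libraries, against 35.0%, 49.5% and 49.2% in WT libraries. None of these 3 shares overlapped between genotypes. Hoxb4 alone gave 60.9%, 65.0% and 61.6% of the Hox counts in knockout libraries, against 17.9%, 7.72% and 5.32% in WT libraries.

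**Figure D4:**
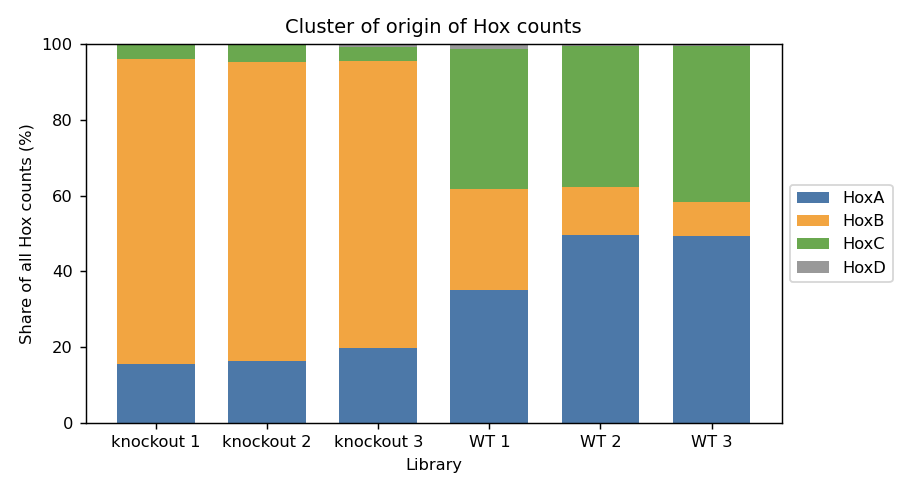
Share of all Hox counts, in percent, that each cluster gave in each library, with knockout libraries on the left and WT libraries on the right. HoxB gives 75.9% to 80.5% in the knockout libraries and 9.05% to 26.7% in the WT libraries.

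The WT libraries did not agree in their Hox levels. Of the 22 Hox genes with at least 10 WT counts, WT library 1 was the lowest WT library in CPM for 21 and WT library 3 the highest for 19. HoxA was 4.15 times as high in WT library 2 as in WT library 1 and 5.81 times as high in WT library 3. HoxC was 2.97 and 4.62 times as high there, whereas HoxB was 1.39 and 1.40 times as high. The stromal marker sum ran beside HoxA and HoxC, at 3.61 and 5.06 times the level of WT library 1, and the macrophage marker sum was at 0.840 and 0.776 times.

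Set against the stromal markers, HoxC had 2.43, 1.96 and 1.67 counts per 1000 stromal marker counts in knockout libraries, against 4.26, 3.50 and 3.89 in WT libraries. The knockout values rest on 4 to 6 counts each, and the exact 95% interval of knockout library 1 (0.788 to 5.66) covers the WT values. HoxA had 9.71, 6.53 and 9.20 in knockout libraries, against 4.04, 4.64 and 4.64 in WT libraries, and so was higher in each knockout library on that scale. HoxB had 50, 31.6 and 35.5 in knockout libraries, against 3.08, 1.18 and 0.854 in WT libraries. These ratios turn on the collagen genes Col1a1, Col1a2 and Col3a1, which make up most WT stromal counts. Without those 3 genes HoxC had 3.67, 3.96 and 2.79 per 1000 in knockout libraries, against 39.0, 53.7 and 59.7 in WT libraries. HoxA had 14.7, 13.2 and 15.4 in knockout libraries, against 37.0, 71.1 and 71.2 in WT libraries, the opposite order from the full list. HoxB had 75.6, 64.1 and 59.4 in knockout libraries, against 28.2, 18.1 and 13.1 in WT libraries, and stayed higher in knockout libraries by less. Eng, which was not called, gives most of the knockout counts of the shorter list.

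Against the macrophage markers, HoxB had 0.256, 0.224 and 0.223 counts per 1000 macrophage marker counts in knockout libraries, against 0.229, 0.378 and 0.413 in WT libraries, and the groups overlapped. HoxC had 0.0124, 0.0139 and 0.0105 in knockout libraries, against 0.317, 1.12 and 1.88 in WT libraries, and these were apart. The macrophage sum is mostly Lyz2, the lysozyme gene. Without it, in a list chosen after seeing the data, HoxB had 0.677, 0.602 and 0.572 in knockout libraries, against 0.839, 1.60 and 1.99 in WT libraries, and the groups no longer overlapped. The part of the cell mixture in the lower HoxA and HoxC levels was not tested.

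**Figure D5:**
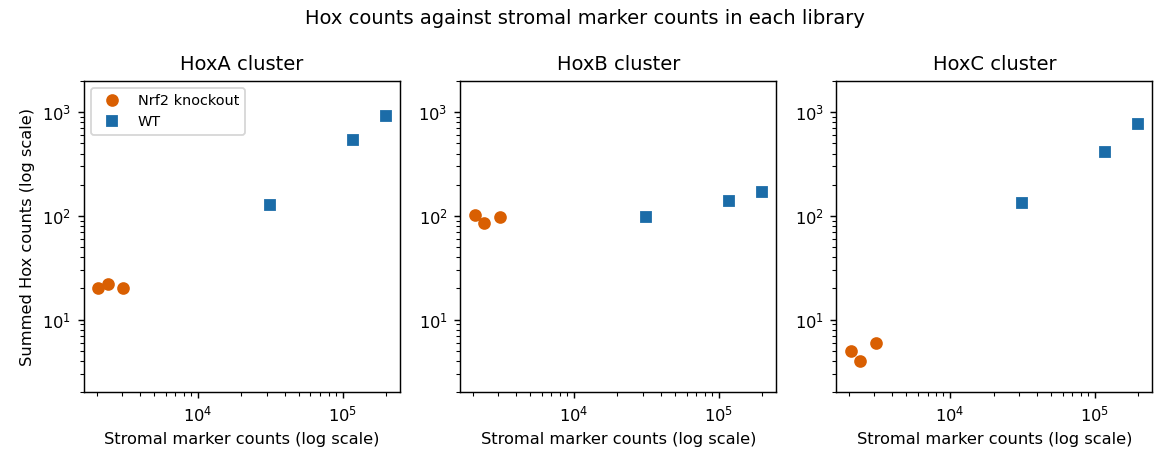
Summed Hox counts of HoxA, HoxB and HoxC against the summed counts of the 18 stromal markers, both on log scales; each point is 1 library, knockout in orange and WT in blue. The knockout libraries sit at 2060 to 3065 stromal counts and the WT libraries at 31469 to 199126, with HoxB counts of 85 to 103 in knockout and 97 to 170 in WT.

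Hox proteins bind DNA with partner homeodomain proteins of the Pbx, Meis and Pknox families. Of 8 such genes tested, 4 were called lower in knockout cells, none was called higher, and the median log2 fold change was -0.49, where 18.7% of all genes tested were lower and 14.1% higher. Of the 4, Meis2 and Pknox2 reached the count minimum in WT alone. Meis2 had no count in knockout libraries, against 19, 39 and 85 in WT libraries (edgeR adjusted p = 0.0065). Pknox2 had 0, 2 and 3 counts in knockout libraries, against 15, 27 and 52 in WT libraries (log2 fold change -4.11, SE 0.73, edgeR adjusted p = 0.0066). Meis1, a partner of Hoxa9 in blood cells, had 17, 17 and 23 counts in knockout libraries, against 28, 79 and 93 in WT libraries (log2 fold change -1.79, SE 0.43, edgeR adjusted p = 0.019). Pbx2, Pbx3, Meis3 and Pknox1 were not called, so the partner genes were unevenly affected.

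Of the signals that set Hox expression in the embryo, 11 genes were tested and 6 were called lower, with none called higher, beside 18.7% lower and 14.1% higher over all genes. Of the 6, Gdf11 and Cyp26b1 reached the count minimum in WT alone, while Aldh1a2 also reached it in some knockout libraries but not all. Retinoic acid turns on anterior Hox genes, and Aldh1a2, which makes it, had 5, 17 and 14 counts in knockout libraries, against 90, 128 and 188 in WT libraries (log2 fold change -3.48, SE 0.42, edgeR adjusted p = 0.0018). Cyp26b1, which breaks it down, had 2, 6 and 5 counts in knockout libraries, against 56, 66 and 126 in WT libraries (log2 fold change -4.20, SE 0.43, edgeR adjusted p = 0.0013). Aldh1a2 and Cyp26b1 were thus both lower, and the other Aldh1a and Cyp26 genes listed were not tested. The receptors Rara, Rarg and Rxra were lower, while Rxrb was not called (log2 fold change 0.07, edgeR adjusted p = 0.52). Also lower was the ligand Gdf11, which shifts the trunk toward posterior Hox codes. Cdx1, Cdx2 and Cdx4, which turn on trunk Hox genes, had no count in any library.

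Polycomb proteins keep Hox genes shut. Of 22 Polycomb genes tested, 7 were called lower and 5 higher (18.7% and 14.1% over all genes), with a median log2 fold change of -0.09, a split that moved with the scaling. Scaled to the summed macrophage markers, 1 was lower and 3 higher, and scaled to their geometric mean, 12 were lower and 1 higher. Phf19, a subunit that helps the repressive complex to bind, had 480, 485 and 498 counts in knockout libraries, against 155, 187 and 185 in WT libraries (log2 fold change 1.45, SE 0.11, edgeR adjusted p = 5.55e-04). Ezh2, the enzyme that writes the repressive mark, had 776, 770 and 823 counts in knockout libraries, against 297, 474 and 548 in WT libraries (log2 fold change 0.84, SE 0.16, edgeR adjusted p = 0.0094). Mtf2 and Jarid2, which recruit the same complex, were higher by log2 fold changes of 0.54 and 0.41. Of 14 Trithorax genes, which keep Hox genes open, 1 was called lower and 2 higher (18.7% and 14.1% over all genes). The lower one was Kdm6b, an enzyme that removes the Polycomb mark (log2 fold change -1.31, SE 0.23, edgeR adjusted p = 0.0065). Scaled to the geometric mean of the macrophage markers, 6 were lower and none higher.

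Other genes that mark body position were lower along with the Hox genes. All 7 limb and trunk genes tested were called lower, beside 18.7% of all genes tested. Their median log2 fold change was -5.62, against -0.01 over all genes tested. Pitx1, which gives the hindlimb its identity, had 0, 2 and 1 counts in knockout libraries, against 57, 178 and 316 in WT libraries (log2 fold change -7.31, SE 0.87, edgeR adjusted p = 0.0018). Tbx4, a hindlimb gene, had no count in knockout libraries and 3, 6 and 9 in WT libraries, and Tbx5, its forelimb counterpart, had 2 counts in WT library 1 and none elsewhere. Prrx1, Tbx15 and Shox2, which shape the limb skeleton, were lower by log2 fold changes of -5.55, -6.08 and -5.51. All 6 head genes tested were also called lower, among them Msx1 (log2 fold change -6.31, SE 0.89, edgeR adjusted p = 0.0029). Twist1 was lower by a log2 fold change of -5.40, and Msx2 had no count in knockout libraries, against 20, 45 and 65 in WT libraries. Prrx1 and Twist1, in these lists, are also among the 18 stromal markers. As with the Hox genes, 6 of the 7 limb and trunk genes tested and 5 of the 6 head genes tested reached the count minimum in WT alone, so a lower knockout level was built into their selection too. Among the genes with counts, tested or not, 8 of 17 limb and trunk genes and 10 of 17 head genes had none in knockout libraries. No such share was counted over all genes, so these counts have no background to be read against.

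Noncoding genes within the clusters were mostly unread. Hoxa11os, antisense to Hoxa11, had 0, 1 and 1 counts in knockout libraries, against 13, 34 and 45 in WT libraries (log2 fold change -5.27, SE 0.75, edgeR adjusted p = 0.0030). Hotairm1, in the HoxA cluster, had 15, 6 and 8 counts in knockout libraries, against 23, 26 and 36 in WT libraries (log2 fold change -1.55, SE 0.39, edgeR adjusted p = 0.023). Hoxa11os was lower together with Hoxa11, which it overlaps, and without strand such reads cannot be told apart. Hotair had no count in knockout libraries and 0, 3 and 1 in WT libraries, and Hottip and Haglr had none.

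Genes on either side of the clusters were compared as well. Within 500 kb of the 4 clusters, 35 protein-coding genes outside them were tested: 5 were called lower, 1 higher and 29 were not called, where 18.7% lower and 14.1% higher was the share over all genes. The nearest tested gene on each side of each cluster was not called. These were Skap2 and Hibadh for HoxA, Atp5g1 and Snx11 for HoxB, Calcoco1 and Smug1 for HoxC, and Lnpk and Mtx2 for HoxD. Around HoxC, Itga5, a fibronectin receptor chain, was lower (log2 fold change -1.46, SE 0.20, edgeR adjusted p = 0.0025), as were Gpr84 and Pde1b. Nfe2l2 itself lies on chromosome 2, from 75675513 to 75704641, 910 kb beyond HoxD. Of the 2 tested genes between them, Mtx2 was not called (log2 fold change 0.14, SE 0.07, edgeR adjusted p = 0.20). Hnrnpa3 was lower (log2 fold change -0.67, SE 0.09, edgeR adjusted p = 0.0025).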

How the data were processed

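Gene-level RNA-seq was analysed in 3 Nrf2 knockout and 3 WT libraries. The deposited raw counts and FPKM values were made by the authors; the submitters' processing notes name, with no role, the build mm10, DESeq2, HTSeq 0.6.1 and HISAT2 2.0.1. Strand use and the handling of reads shared by genes are not given in the sources used here. Each deposited FPKM value equals the count over exonic length and column total within 0.005. Columns were matched to samples by genotype and final digit.

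Counts were tested with edgeR 4.0.16 in R 4.3.3: filterByExpr with a minimum count of 10, TMM scaling, the quasi-likelihood test, 2 groups, and Benjamini-Hochberg adjustment over all 13184 genes tested, with a threshold of 0.05. Each SE was taken as the absolute log2 fold change divided by the root of the F statistic. CPM values were TMM-scaled. Levels between genes were compared in FPKM only. Exact intervals cover counting error only, and the floor of 3 counts covers that of the knockout group alone. The test was checked on simulated data in which both genotypes had the same small spread. That check does not cover the wider spread of the WT libraries. Alternatives were other scalings and filters, DESeq2 1.42.0, limma 3.58.1, a stricter threshold, each library left out in turn, and a replicate block. Genes named were the Hox members, up to 4 tested genes of smallest p in each list, and the nearest tested gene beside each cluster; others were chosen after their values were seen. The members and gene lists were chosen with earlier results of these data known. Pairs of replicates gave chi-square values of 3.24 to 161.57 per degree of freedom, above the sampling noise. Some single genes counted in the totals are not reported here.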

Additional observations from a re-analysis of the deposited data

How the results depend on the processing

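Hox genes called numbered 11 of 12 tested, all lower. With no low count filter 17 of 31 were called, with a minimum count of 50 it was 1 of 2, with DESeq2 17 of 23, with limma-voom 6 of 12, with limma on log2(FPKM + 1) or log2(FPKM + 0.1) 2 of 3, and at an adjusted p under 0.01 it was 7. Leaving out 1 library gave 9 to 16. Over all genes 4333 were called, 2123 at an adjusted p under 0.01 and 2491 to 6901 with 1 library left out: 2491, 2748 and 2574 without knockout library 1, 2 or 3, and 6901, 2687 and 3654 without WT library 1, 2 or 3. Under limma-voom the genes that lost their calls included Hoxa9, Hoxa10, Hoxc10 and Hoxb3. No tested Hox gene's fold change reversed in the settings run. The order of HoxA per stromal count and the split of Polycomb calls did change, as given with them. Hoxb4 was called in none of 19 settings. The cause of these differences was not tested.

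Same-numbered knockout and WT libraries had correlated deviations of 0.170, 0.146 and 0.0867, and each library correlated best with its own number. No label pairs the samples, and these correlations cannot decide whether the numbers do. The replicate block gave 4174 calls over all genes and 10 among Hox genes, without Hoxb3 (adjusted p = 0.095). Scaling to the geometric mean of the macrophage markers, chosen after seeing the data, moved the median log2 fold change of all genes to -0.57 and gave 6129 lower and 346 higher calls, against 2468 and 1865; 11 Hox genes were called lower and Hoxb4 stood at -0.73 (edgeR adjusted p = 0.070). Counts of 0 to 3 per library limit most Hox values in knockout cells.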
